A study of Mus musculus with 3 samples.

Results

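Genes that endothelial and endocardial cells use to respond to blood flow were followed in mouse heart tubes that lack Sox7. The set was defined by gene name, but it was chosen with earlier results of these data known. It held 9 genes, Klf2, Klf4, Klf6, Nos3, Thbd, Nfatc1, Heg1, Ccm2 and Krit1, out of 23337 gene symbols counted, and all 9 were among the 13334 genes with enough reads to be tested. Bulk RNA-seq was done on heart tubes at embryonic day 9.5 from Sox7-null mice, labelled SOX7 (-/-) (2 libraries, Sox7-null 1 and Sox7-null 2) and wild-type mice (1 library). The labels do not describe how the null allele was made, nor give a strain or sex. They leave unstated if tubes were pooled or taken from separate embryos, so the spread between libraries may be technical. The p-values rest on the spread of the Sox7-null pair, combined with that of all tested genes, since the wild type has 1 library.

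Flowing blood exerts shear stress on the cells that line heart and vessels. In these cells a kinase cascade that runs from MEKK3 through MEK5 to ERK5 activates MEF2 transcription factors, which switch on Klf2 and Klf4, genes of Kruppel-like zinc finger transcription factors. These factors in turn raise protective genes such as Nos3 and Thbd and lower genes of inflammation and vasoconstriction. A complex of the cerebral cavernous malformation (CCM) proteins KRIT1, CCM2 and PDCD10, held at cell junctions by the transmembrane protein HEG1, restrains MEKK3 in the endocardium and so limits Klf2 and Klf4. The SoxF transcription factor gene Sox7 is active in the same cells, and the series asks which transcripts differ when it is absent.

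Stretches upstream of Klf2, Klf4 and Heg1 are shown because the MEF2 arm acts at the first, the next is its partner gene, and Heg1 was the member that passed the test. They come from RefSeq on GRCm38.p6, where 6 members had a window that was used, and were ended before the first annotated transcript base. The build behind the deposited counts is not settled, so they are reference context and not measured positions. Capitals mark a MEF2 site or a KLF box (CACCC or its complement GGGTG).
Klf2, chr8:72318812-72319032, plus strand: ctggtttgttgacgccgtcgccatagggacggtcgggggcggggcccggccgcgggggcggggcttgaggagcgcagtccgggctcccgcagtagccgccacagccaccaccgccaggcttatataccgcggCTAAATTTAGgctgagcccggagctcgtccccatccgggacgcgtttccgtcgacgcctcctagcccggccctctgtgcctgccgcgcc
Klf4, chr4:55532476-55532725, minus strand: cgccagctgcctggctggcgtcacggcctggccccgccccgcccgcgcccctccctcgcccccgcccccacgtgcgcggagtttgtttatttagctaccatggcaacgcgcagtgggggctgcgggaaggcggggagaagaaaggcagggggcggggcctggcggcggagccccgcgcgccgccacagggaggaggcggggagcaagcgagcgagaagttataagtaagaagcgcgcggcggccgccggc
Heg1, chr16:33684216-33684369, plus strand: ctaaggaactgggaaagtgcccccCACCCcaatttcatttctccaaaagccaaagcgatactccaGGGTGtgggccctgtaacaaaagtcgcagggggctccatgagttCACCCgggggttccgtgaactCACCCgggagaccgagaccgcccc
The stretch of Klf2 held 1 MEF2 site, CTAAATTTAG, which began 118 bases before the start site, and the window held 1 KLF box nearer the start, outside the stretch shown. A MEF2 site occurred in 2.92% of 32851 promoter windows of 250 bases. The whole window of Heg1 held 5 KLF boxes, 4 of them in the part shown. At least 1 KLF box was present in 52.0% of all windows and 5 or more in 0.667%. The window of Klf4 held no match to a KLF box, a MEF2 site, the SOX core ACAAT or the AP-1 site TGANTCA on either strand. None of the 6 members had a SOX core in its window at the annotated gene start, against 27.7% of all windows. The windows of these members held 64.8% to 74% GC, and the share of all windows was not matched for GC. A match is a run of letters and not a shown binding site.

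Reads assigned to genes numbered 13139823 (Sox7-null 1), 13618338 (Sox7-null 2) and 13789388 (wild type). Reads that did not align uniquely made up 10.4%, 11.6% and 22.3%, so the wild-type library stood apart, and the part of this in the results was not tested. Sox7 itself kept 2 and 7 reads against 222, which is 50.7-fold lower, with a 95% exact interval of 26.2 to 112 that covers counting error. Of its SoxF relatives Sox17, which also marks endoderm, rose (14.6 and 10.6 CPM against 2.41, log2 fold change 2.38 ± 0.38) and Sox18 had a log2 fold change of -0.25 ± 0.28. Of 11 tested markers of foregut endoderm and liver bud, Sox17 was the 1 that rose and 9 fell (81.8%, against 10.2% of all tested genes). The 12 listed summed to 17.2, 14.8 and 59.3 CPM, of which Sox17 made up 14.6, 10.6 and 2.41. CPM here are read counts scaled to library size. Cardiomyocyte markers were abundant and summed to 35471, 33589 and 29509 CPM. The 11 retinal markers, examined because the extraction protocol names retinal organoids, summed to 3.56, 1.60 and 7.01 CPM, and Crx, Rcvrn, Six3 and Six6 were among those with no reads in any library. The 20 endothelial and endocardial markers summed to 896, 861 and 845 CPM. Of these, 4 rose (Pecam1, Tie1, Flt1 and Erg) and 3 fell (Tek, Npr3 and Cd34). These are 20% and 15%, against 11.3% and 10.2% of all tested genes. DESeq2 called 1 higher and 1 lower, where 7.06% and 5.41% of all tested genes were. With a trend on transcript length and GC removed 2 were higher and 2 lower, where 7.44% and 5.56% of all tested genes were. In whole heart tubes, fewer cells of a type and less RNA per cell cannot be told apart.

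Among the 9 genes, Heg1 rose about 3-fold in the Sox7-null tubes and was the member that passed the test. Klf2 and Nos3 were lower in both null libraries by about the same amount, and Klf6 and Klf4 were higher in both, but none of the 4 passed. Thbd, Ccm2 and Krit1 lay close to the wild type, and Nfatc1 lay on both sides of it. With edgeR's quasi-likelihood test at an adjusted p under 0.05, 1 of 9 members was called (11.1%), against 21.6% of all tested genes, 11.3% higher and 10.2% lower. The members' median log2 fold change was -0.11 and that of all tested genes 0.01. The wild-type level lay outside the range of the null libraries for 8 of 9 members and for 86.1% of all tested genes. It was above both null libraries for 5 members (43.0% of all genes) and below both for 3 (43.1%). DESeq2 called 12.5% of all genes (7.06% higher, 5.41% lower), limma-voom 19.1% (9.39% higher, 9.73% lower), and Heg1 was the member called by each. With a trend on length and GC removed, 13.0% of all genes were called (7.44% higher, 5.56% lower), as were 4 members, Heg1 and Klf6 higher and Klf2 and Nos3 lower. The members' share called was thus below that of all genes under edgeR and above it with the trend removed (44.4% against 13.0%). Neither share of the 9 genes was tested, and the members' position against the null range was near the background.

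**Figure D1:**
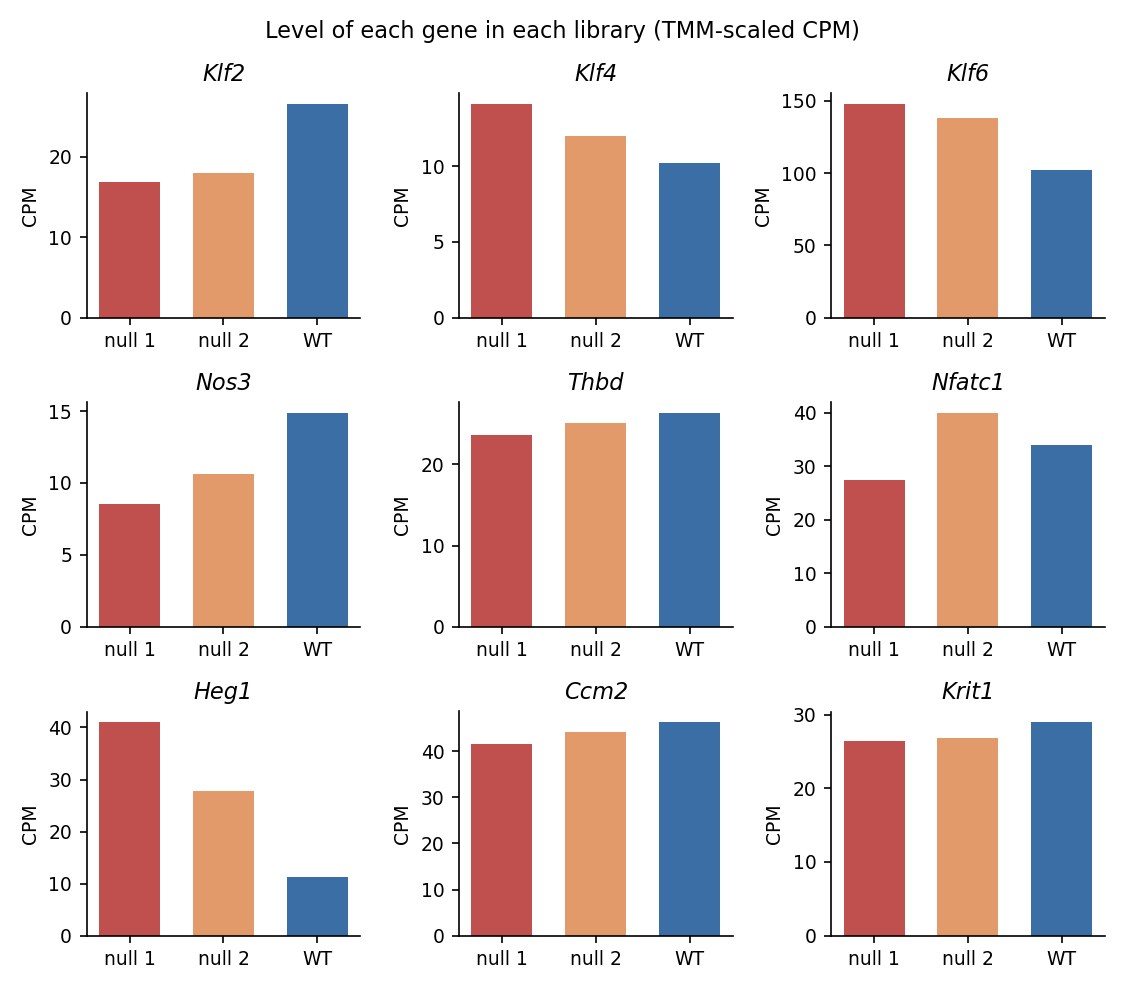
TMM-scaled CPM (vertical axes from 0) of the 9 genes, 1 bar for each library (Sox7-null 1, Sox7-null 2 and wild type, WT). Heg1 stands at 41.0 and 27.9 CPM in the null libraries against 11.3 in the wild type, and Klf2 at 16.9 and 18.0 against 26.5.

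Klf2, the shear-induced transcription factor gene, had 228 and 248 reads in Sox7-null tubes 1 and 2, against 352 for the wild type. Scaled to library size these were 16.9, 18.0 and 26.5 CPM, so both null libraries lay below the wild type and close to each other. The level was 1.52-fold lower, a log2 fold change of -0.60 ± 0.22 (SE; 95% interval -1.08 to -0.12). This did not pass the test (edgeR adjusted p = 0.0697). It passed narrowly after removal of the trend on length and GC content of transcripts (-0.71, adjusted p = 0.0466), and with DESeq2 the adjusted p was 0.288. Per 1000 CPM of the 20 endothelial markers, Klf2 stood at 18.9 and 20.9 in the null tubes against 31.4. Primitive red cells also make Klf2. Their 9 markers found in the files summed to 4549 CPM (Sox7-null 1), 14477 (Sox7-null 2) and 14035 (wild type), and their part in the Klf2 values was not tested.

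Klf4, the closest functional partner of Klf2 in endothelium, had 190 and 165 reads against 135. Its levels of 14.09, 11.97 and 10.18 CPM put both null libraries above the wild type. The log2 fold change of 0.36 ± 0.28 (95% interval -0.24 to 0.96) did not pass (edgeR adjusted p = 0.389). Epithelial cells are a known source of Klf4, and 12 surface ectoderm and epithelial markers summed to 62.8, 55.7 and 115 CPM. Their part in the Klf4 values was not tested. Klf6, a broadly expressed relative that is induced by injury and by growth factors, was the most abundant of the 3. It had 1991 and 1902 reads against 1356, or 148, 138 and 102 CPM. The wild-type value thus lay outside the range of the null libraries, as for 86.1% of all tested genes. Its log2 fold change was 0.48 ± 0.19 (95% interval 0.08 to 0.89), which did not pass (edgeR adjusted p = 0.0826) and did with the length and GC trend removed (0.60, adjusted p = 0.0480). Per 1000 CPM of endothelial markers, Klf6 stood at 165 and 160 against 121.

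The 14 other genes of the family were mostly not called. Of 13 tested, 1 rose (7.69%, against 11.3% of all tested genes). It was Klf13, a regulator expressed in embryonic heart muscle, which went from 457 reads to 1244 and 1131 (1.34 ± 0.21 in log2, edgeR adjusted p = 0.00141). The median over the 13 was 0.45. Over the 3 libraries the genes nearest to Klf2 in centred log2(CPM + 0.5) were Sec62, Rab32, Nsmce1, Trappc2 and Mrpl19, at distances of 0.0024 to 0.010. Nearest to Klf4 were Stx5a, Pcyox1, Phf7, Fdxr and Med15, at 0.0036 to 0.0088. Of 9713 genes compared, 341 lay within 0.1 of Klf2 and 408 within 0.1 of Klf4, so 3 libraries set few genes apart.

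Nos3 encodes the endothelial nitric oxide synthase, which relaxes vessels. It had 115 and 146 reads when Sox7 was absent and 197 when present, or 8.53, 10.6 and 14.9 CPM, and both null libraries lay below the wild type. The level was 1.55-fold lower, a log2 fold change of -0.63 ± 0.28 (95% interval -1.23 to -0.04), which did not pass (edgeR adjusted p = 0.119). With the length and GC trend removed it was -1.02 and passed (adjusted p = 0.0363). Per 1000 CPM of endothelial markers, Nos3 stood at 9.52 and 12.3 against 17.6. The gene overlaps Atg9b on the opposite strand, which rose with 165 and 100 reads against 21 (edgeR adjusted p = 0.00232). The strand setting of the counting is not given in the sources used, so reads of the overlap cannot be told apart. The same holds for Ccm2, which overlaps the pseudogene Gm11975, and for Nfatc1, which overlaps an annotated antisense gene. Krit1 overlaps Lrrd1 on its own strand, where the strand setting would not separate the reads.

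Thbd encodes thrombomodulin, which binds thrombin at the cell surface and turns it to activating protein C. Its 319 and 346 reads against 349 gave 23.7, 25.1 and 26.3 CPM. The difference of -0.11 ± 0.22 (95% interval -0.58 to 0.36, edgeR adjusted p = 0.757) did not pass, which does not show that the levels were equal. Nfatc1, the endocardial transcription factor needed for valve formation, had 370 and 550 reads against 450. Its levels of 27.4 and 39.9 CPM lay on either side of the wild type at 33.9, and the log2 fold change was -0.01 ± 0.25 (95% interval -0.54 to 0.52, edgeR adjusted p = 0.979). The sign therefore depended on the library: without Sox7-null 1 it was 0.23, and without Sox7-null 2 it was -0.31.

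Heg1 encodes the junctional anchor of the CCM complex. It overlaps the annotated antisense gene Gm15657, whose reads cannot be told apart from its own without the strand setting. It had 553 and 384 reads in Sox7-null tubes against 150 in wild type. The levels of 41.0 and 27.9 CPM both lay above the wild type at 11.3, and differed from each other more, in log2, than those of any other member. The rise was 3.04-fold, a log2 fold change of 1.61 ± 0.28 (95% interval 1.00 to 2.21, edgeR adjusted p = 0.00231). It remained called with DESeq2 (adjusted p = 0.000559), limma-voom (adjusted p = 0.00608) and the length and GC trend removed (1.18, adjusted p = 0.0158). Without a filter on low counts it was 1.62 and not called (adjusted p = 0.122), a setting in which edgeR called 0.00% of 17242 genes (4113 had an unadjusted p under 0.05). Per 1000 CPM of endothelial markers, Heg1 stood at 45.8 and 32.4 against 13.4.

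The intracellular members of the complex did not pass the test. Ccm2, the adaptor that links the complex to MEKK3, had 559 and 609 reads against 614 (41.5, 44.2 and 46.3 CPM), a log2 fold change of -0.11 ± 0.20 (95% interval -0.55 to 0.33, edgeR adjusted p = 0.734). Krit1, the scaffold that binds HEG1 and the GTPase RAP1, had 356 and 369 reads against 384 (26.4, 26.8 and 29.0 CPM), a log2 fold change of -0.12 ± 0.21 (95% interval -0.58 to 0.34, edgeR adjusted p = 0.722). Both intervals end below the lower bound of Heg1.

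**Figure D2:**
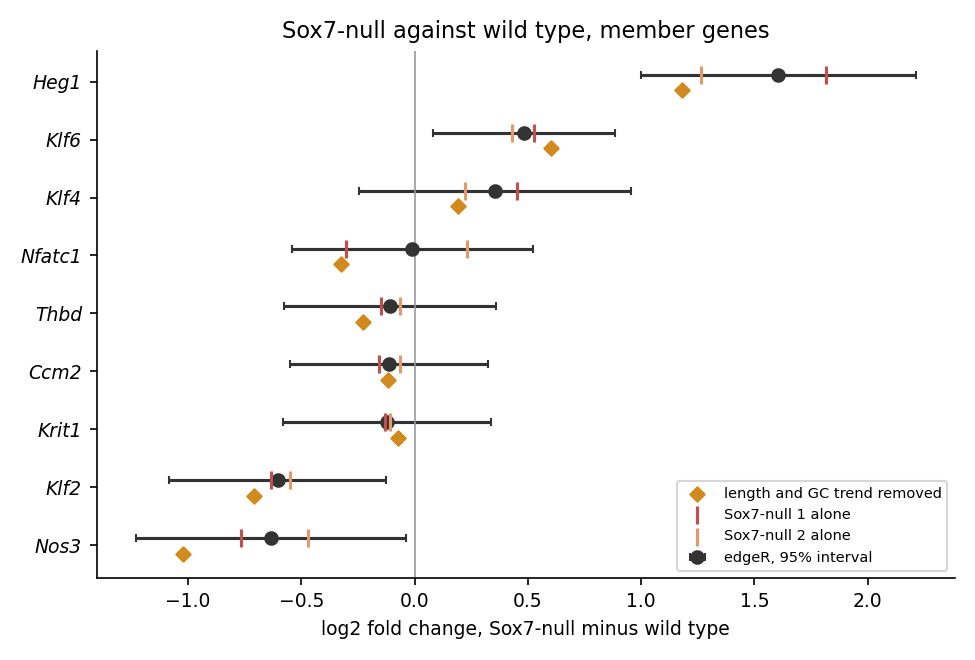
Log2 fold change of each gene, Sox7-null minus wild type. Circles and bars are edgeR estimates with 95% intervals, ticks are each null library against the wild type in log2(CPM + 0.5), and diamonds are the estimates after removal of the length and GC trend. Heg1 (1.61) stands apart on the right, Klf2 (-0.60) and Nos3 (-0.63) lie on the left, and the ticks of Nfatc1 fall on both sides of 0.

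Levels can be compared between genes only per length of transcript, here in CPM per kilobase of the longest annotated transcript. In the wild type Ccm2 (24.9) and Klf6 (24.2) were highest, followed by Klf2 at 14.4, Nfatc1 and Thbd at 7.07 each, Krit1 at 5.19, Nos3 at 3.60, Klf4 at 3.36 and Heg1 at 1.39. In the null libraries the means ran from Klf6 (33.8), Ccm2 (23.1) and Klf2 (9.45) through Nfatc1 (7.02), Thbd (6.55), Krit1 (4.76), Klf4 (4.30) and Heg1 (4.22) to Nos3 (2.31). Heg1 was thus the lowest of the 9 in the wild type, and Nos3 was in the null group. The null values of Heg1 (5.03 and 3.41) overlapped those of Krit1 (4.73 and 4.80) and Klf4 (4.65 and 3.95). Those of Nfatc1 (5.72 and 8.32) overlapped those of Thbd (6.36 and 6.74), so these neighbours do not differ beyond the spread.

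The genes that act with the members were grouped into 10 lists. Among flow sensors and junctional proteins, 7 of 23 tested rose (30.4%, against 11.3% of all tested genes) and 16 did not pass. The median log2 fold change was 0.51. With the length and GC trend removed 5 were higher and 1 lower, where 7.44% and 5.56% of all tested genes were. The mechanically gated channel gene Piezo1, counted under its older symbol Fam38a, had 43.1 and 37.5 CPM against 12.97 (log2 fold change 1.63 ± 0.24, edgeR adjusted p = 0.000985). Itga5, the fibronectin receptor subunit, rose by 1.57 ± 0.23, and Pecam1, a junctional flow sensor, by 1.07 ± 0.24. The growth factor receptor gene Flt4 rose by 1.34 ± 0.27, but not with the length and GC trend removed (0.79, adjusted p = 0.0643). All of these were higher in both null libraries.

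Partners of the CCM complex showed 2 of 12 higher and 2 lower (16.7% each, against 11.3% and 10.2% of all tested genes), with a median of -0.08. Pdcd10, the complex's remaining subunit, had 58.2 and 70.9 CPM against 102 and fell by 0.66 on the log2 scale (edgeR adjusted p = 0.0331). Itgb1bp1, which encodes the KRIT1 partner ICAP1, fell by 0.95. Tln1, the gene of the integrin adaptor talin, rose by 1.20 ± 0.21, and Cdc42bpb, a kinase gene, by 0.65 ± 0.21. Without the length and GC trend these values were -0.07, -0.62, 0.56 and 0.05, and none of the 4 was called.

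In the kinase cascade that leads to Klf2, none of the kinase genes passed the test. Map3k3, the gene of MEKK3, stood at 36.8 and 37.7 CPM against 29.5, Map2k5, that of MEK5, at 25.0 and 23.4 against 24.5, and Mapk7, that of ERK5, at 22.9 and 18.5 against 16.4. Their edgeR adjusted p-values were 0.279, 0.965 and 0.361. Their products act by phosphorylation, which transcript levels do not show. Of 12 genes on the list, 4 rose (33.3%, against 11.3% of all tested genes). With the length and GC trend removed 3 were higher and 1 lower, where 7.44% and 5.56% of all tested genes were. Mef2d rose by 1.30 ± 0.24 and Mef2a by 0.86 ± 0.22, and Mef2b, with 87 and 42 reads against 7, by 3.15 ± 0.67. Mef2a did not pass with DESeq2 (adjusted p = 0.0516). The MEF2 repressor gene Hdac5 rose by 0.79 ± 0.21, though not after removal of the length and GC trend (0.23). Mef2c, the MEF2 gene with the most reads here, stood at 180 and 196 CPM against 171 and did not pass (edgeR adjusted p = 0.634).

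Genes reported as repressed by KLF2 or KLF4 in endothelium were higher more often than not, with 8 of 13 that rose (61.5%, against 11.3% of all tested genes) and a median of 0.75. The angiogenic factor gene Vegfa had 3519 and 1959 reads against 492 and rose by 2.44 ± 0.32 (edgeR adjusted p = 0.000500), and Edn1, which encodes the vasoconstrictor endothelin-1, had 29.5 and 23.4 CPM against 8.22 and rose by 1.68 ± 0.27. Ace, the angiotensin-converting enzyme gene, rose from 3 reads to 113 and 24, 22.2-fold with a 95% exact interval of 7.44 to 109 by counting error, and did not pass with limma-voom (adjusted p = 0.118). In the same libraries 11 of 11 platelet markers rose, with sums of 420, 261 and 69.2 CPM, and so did 2 of 8 tested epicardial markers, with sums of 1107, 857 and 283. The epicardial sum rested on Krt19 (792, 669 and 81.0 CPM), and the other 8 markers summed to 315, 188 and 202. No platelet marker was at 0 in all libraries. Their part in these values was not tested.

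Genes reported as mostly induced by the same factors moved both ways. Of 33 tested, 10 rose, 5 fell and 18 did not pass, with a median of 0.17, and after removal of the length and GC trend there were 5 in each direction. The 5 that fell were Gja4, Aqp1, Cyp1b1, Adamts5 and Tek. The arterial connexin gene Gja4 had 7.05 and 6.68 CPM against 29.0 and fell by 2.08 on the log2 scale (edgeR adjusted p = 0.000311). The water channel gene Aqp1 had 19 and 12 reads against 79, and Cyp1b1, an oxidising enzyme gene, had 12 and 15 against 66 (edgeR adjusted p = 0.00636, but 0.0765 with DESeq2). Adamts5, which cleaves cushion proteoglycan, fell by 1.95, and Tek, the angiopoietin receptor gene, by 0.91. On the other side the growth factor gene Bmp6 rose by 2.07 ± 0.32, the cell cycle inhibitor gene Cdkn1b by 1.19 ± 0.23 and Fn1, the gene of fibronectin, by 1.08 ± 0.20. Fn1 was not called after removal of the length and GC trend (0.55). The endocardial ligand gene Wnt9b, with 3 and 2 reads against 6, was too low to test. Of 11 cushion mesenchyme markers, 4 fell and 2 rose (36.4% and 18.2%, against 10.2% and 11.3% of all tested genes). DESeq2 called 1 lower and 1 higher, where 5.41% and 7.06% of all tested genes were. The 11 summed to 2041, 1686 and 1240 CPM, and their part in the values of this list was not tested.

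**Figure D3:**
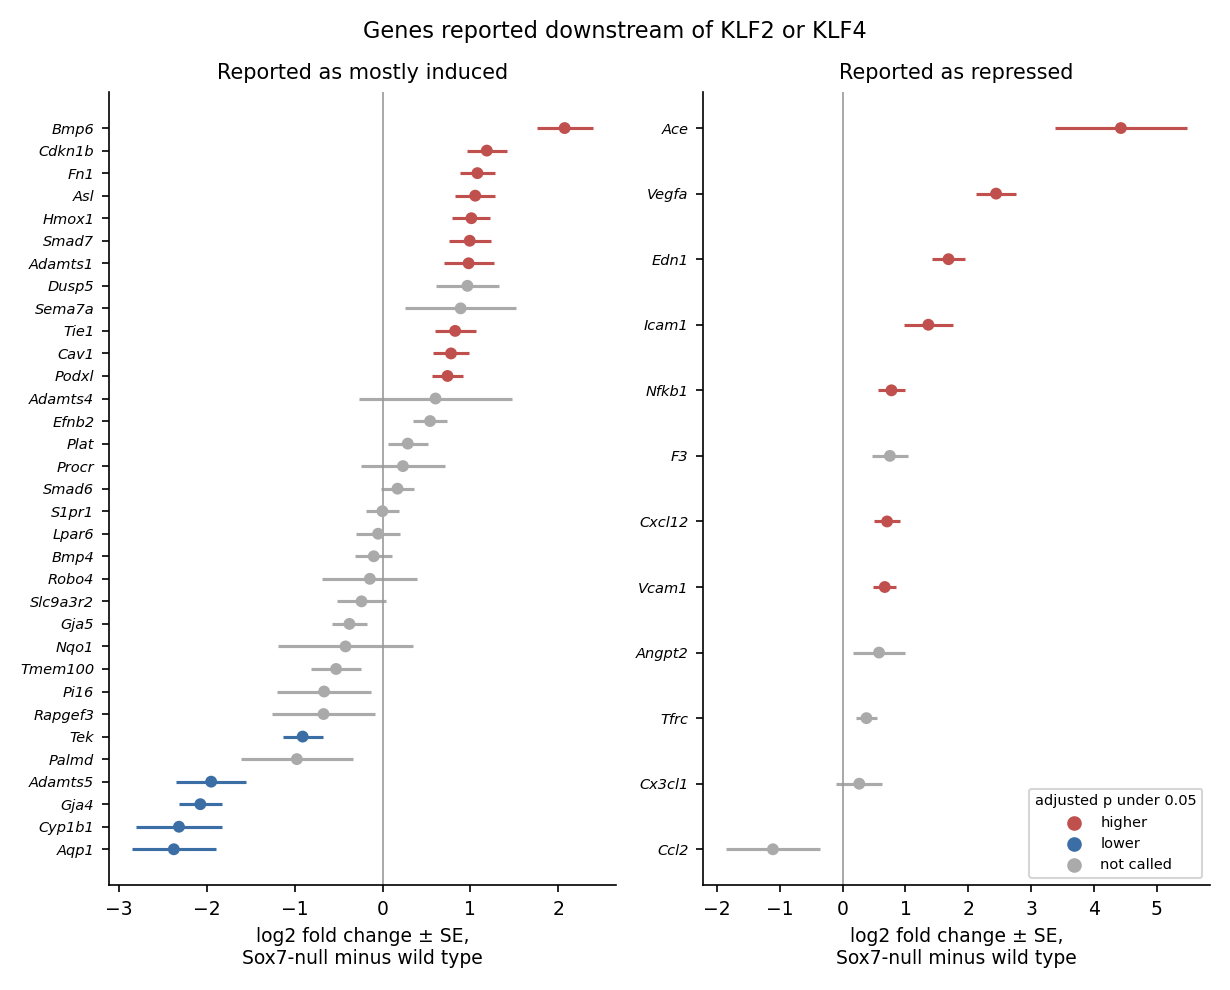
Log2 fold change with its standard error (horizontal axes, Sox7-null minus wild type) of the tested genes reported as mostly induced (left) or repressed (right) by KLF2 or KLF4. Colours give the call at an adjusted p under 0.05. On the left 10 rose (30.3%) and 5 fell (15.2%), against 11.3% and 10.2% of all tested genes. On the right 12 of the 13 tested genes are drawn, with Vegfa at 2.44.

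Around Nos3, genes of nitric oxide synthesis and cyclic GMP showed 4 of 18 higher (22.2%) and 3 lower (16.7%), with a median of 0.21. The shares of all tested genes were 11.3% and 10.2%. The arginine transporter gene Slc7a1 rose by 1.41 ± 0.21, and Ddah1, whose product removes an inhibitor of the synthase, by 1.23 ± 0.19. Hsp90ab1, a chaperone gene, rose by 0.57 ± 0.13 and Prkg1, the cyclic GMP-dependent kinase gene, by 0.63 ± 0.19. Pts, an enzyme gene for the cofactor tetrahydrobiopterin, fell by 1.12 and the chaperone gene Hsp90aa1 by 0.84. Without the length and GC trend Hsp90ab1, Prkg1 and Hsp90aa1 were no longer called (adjusted p = 0.0547, 0.0750 and 0.0522).

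Around Thbd, 12 genes of the thrombin and protein C system were counted, and 6 of them had enough reads to be tested. Of these 6, 3 rose (50%, against 11.3% of all tested genes). These were the thrombin receptor genes F2rl2 (2.73 ± 0.34) and F2r (0.66 ± 0.17) and Tfpi (0.83 ± 0.21), the gene of an inhibitor of the clotting start. F2rl2 is also a platelet gene and is on the platelet list. The protein C receptor gene Procr, with 59 and 35 reads against 39, did not pass. Around Nfatc1, 3 of 14 calcineurin and NFAT genes rose (21.4%, against the same 11.3%). The calcineurin regulator gene Rcan1, a known NFAT target, had 363 and 249 CPM against 153 and rose by 1.00 ± 0.22 (edgeR adjusted p = 0.00816), and Rcan2 rose by 0.80 ± 0.21. Nfatc4 rose by 1.17 ± 0.27, but not with the length and GC trend removed (0.80).

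Klf2, Klf4 and Klf6 are also known as immediate early genes, which cells switch on within minutes of a stimulus. Of 21 such genes tested besides them, 12 rose (57.1%, against 11.3% of all tested genes), with a median of 1.04. With DESeq2 8 rose, where 7.06% of all tested genes did. With the length and GC trend removed 8 rose, where 7.44% of all tested genes did. Ier3, a survival factor gene, rose by 4.20 ± 0.35, the matrix signal genes Ctgf and Cyr61 by 2.53 ± 0.25 and 1.79 ± 0.20, and Fosl2, an AP-1 subunit gene, by 2.40 ± 0.38.

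**Figure D4:**
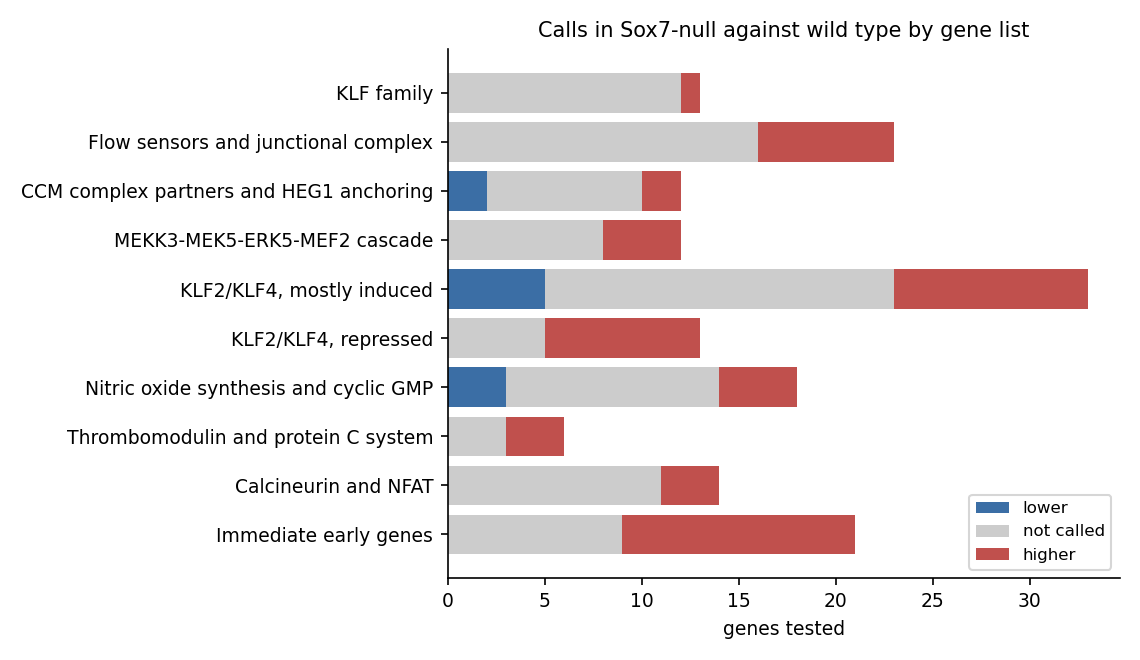
Number of tested genes (horizontal axis) in each of the 10 lists that were lower, not called or higher in Sox7-null against wild type at an adjusted p under 0.05. The list of repressed KLF2 and KLF4 genes (8 of 13) and the immediate early genes (12 of 21) hold mostly genes that were higher. Of all tested genes 11.3% were higher and 10.2% lower.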

How the data were processed

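The data are 3 libraries of mouse heart tube RNA, grouped by the genotype label. The authors deposited whole-number read counts per gene symbol, 1 file for each library and not pooled, as the files show. A stranded total RNA kit was used on Trizol-extracted RNA, per the labels' protocols. Tools named in the submitters' processing notes are HTSeq, TopHat2, CASAVA and DESeq2 1.10.1. These notes name human builds (hg19, GRCh37) although the symbols are mouse, so no position of a read is given. Annotation and strand setting of the counting were not given in the sources used here. Lines that name no gene held 20.8%, 22.4% and 35.9% of reads and were left out. All 3 pairs of libraries differed beyond sampling noise (chi-square per degree of freedom 19.6 to 117).

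The counts were tested with edgeR 4.0.16 in R 4.3.3 (glmQLFit and glmQLFTest), with TMM scaling, a filterByExpr minimum count of 10 and Benjamini-Hochberg adjustment over all 13334 genes tested. The fit had 11.8 prior and 1 residual degrees of freedom, and it takes the spread of the null pair for the wild type too. The procedure was checked on simulated counts. DESeq2 1.42.0, limma-voom (limma 3.58.1), other scaling and filters, left-out libraries and a length and GC trend removed with mgcv 1.9.3 (values for 99.0% of genes, GENCODE M21) were alternatives. Exact intervals cover counting error only. Of 328 list entries, 325 matched a symbol, 9 through an older one.

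The 9 members and the lists were chosen with earlier results of these data known. Beyond the members, up to 4 genes of each list with the smallest p among those called (mean of at least 1 CPM) and members of counts of 5 or fewer are named, and others were named after their values were seen. Marker lists are given as sums. Protein similarity of the zinc fingers was not analysed here. The promoters of Nfatc1, Nos3 and Thbd were not used here. Some genes counted in the lists are not reported by name here.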

Additional observations from a re-analysis of the deposited data

How the results depend on the processing

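Under the alternatives that have a test, the members kept their direction and their side of the threshold with these exceptions. Nfatc1, at -0.01, changed sign to 0.0038 with no filter, and was -0.31 to 0.23 with either null library left out. Without a filter on low counts edgeR called 0 genes higher and 0 lower, and 0 members, and Heg1 had 1.62 (adjusted p = 0.122). The prior degrees of freedom were then 3.23 instead of 11.8, and 4113 genes had an unadjusted p under 0.05. With the length and GC trend removed 992 genes were higher and 742 lower, against 1508 and 1366, while members called became 2 higher and 2 lower, with Klf2 at -0.71, Klf6 at 0.60 and Nos3 at -1.02. The cause was not tested. DESeq2 called 941 genes higher and 721 lower, with Heg1 the member called. Relative to the summed endothelial markers, a scaling chosen after the data were seen, Krit1 moved to -0.18 by more than the spread of the null libraries. Other scalings shifted the median of all tested genes by under 0.1. Leaving out either null library leaves 1 library against 1 and no test. The members' values then ranged from 1.30 to 1.86 for Heg1, -0.65 to -0.56 for Klf2, -0.80 to -0.49 for Nos3, 0.23 to 0.47 for Klf4 and 0.43 to 0.53 for Klf6. No paired analysis was possible because the labels number the tubes across the groups and the wild-type group holds 1 library. With 1 wild-type library its own variation is unknown, and members such as Nos3 and Klf4, with the fewest reads, have log2 standard errors of 0.28 each. That of Heg1, the member called, is also 0.28.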
